A study of Mus musculus with 4 samples.

Results

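Polycomb repressive complex 1 (PRC1) was followed at the transcript level in mouse embryonic stem cell lines that differ in UTX genotype. Of 10 listed PRC1 subunit genes (Rnf2, Ring1, Bmi1, Pcgf1, Pcgf2, Pcgf6, Cbx2, Cbx7, Phc1 and Rybp), 9 had a probe set that the array's annotation assigns to that gene alone. These 9 genes had 20 such probe sets, of 34958 that name a single gene. Rybp had none, since both of its probe sets also name another gene, and it was not analysed here. The study set 2 UTX knockout lines (KO lines 1 and 2) against 2 UTX conditional knockout lines (cKO lines 1 and 2), with 1 Affymetrix Mouse Genome array for each line. All lines had been kept on irradiated fibroblast feeders in serum medium with leukaemia inhibitory factor, and were moved to gelatin to remove the feeders before total RNA was taken. The labels do not say whether the conditional allele was intact in the cKO lines, which part of the gene was deleted, or what strain or sex the lines were. They do not name separate cultures, so each p-value reflects only how far these 4 arrays scatter, and some of that scatter may be technical.

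PRC1 is an E3 ubiquitin ligase that places ubiquitin on histone H2A and helps keep developmental genes silent in pluripotent cells. Its core is RNF2 (RING1B) or RING1 (RING1A) bound to 1 of several PCGF proteins. Canonical complexes hold PCGF2 or BMI1 with a chromobox protein (CBX2, CBX7 and others), which binds the trimethylated histone H3 tail left by Polycomb repressive complex 2 (PRC2), and a polyhomeotic protein such as PHC1. Variant complexes hold RYBP or its homologue YAF2 in place of the chromobox protein, with PCGF1, PCGF6 and others. UTX, encoded by Kdm6a, is a demethylase of that same histone mark, so the question here is whether the UTX knockout lines carried different amounts of the transcripts of the complex.

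Kdm6a itself read 265 and 198 in KO lines 1 and 2, against 658 and 415 in cKO lines 1 and 2. Both KO values lay below both cKO values, and the log2 fold change was -1.17 (SE 0.27, adjusted p = 0.088 in limma), which missed the threshold of 0.05. Leaving out KO line 1 brought it past the threshold (-1.38, adjusted p = 0.00916), as did leaving out cKO line 2 (-1.50, adjusted p = 0.0157) and centring each array on its median (-1.22, adjusted p = 0.0091). It was smaller without cKO line 1 (-0.84) and when all Kdm6a probe sets were averaged (-0.57, adjusted p = 0.522). That average includes 1440524_at and 1445198_at, both below the filter on low signal. The other Kdm6a probe set above it (1427672_a_at) read 153 and 132 in KO lines, against 382 and 267 in cKO lines. Its log2 fold change was -1.14 (adjusted p = 0.101 in limma over probe sets). The position of the probes relative to the deletion was not used here. The arrays' median signal lay between 64.4 and 81.6. The 8 embryonic stem cell markers (Pou5f1, Sox2, Nanog, Zfp42, Esrrb, Dppa5a, Utf1 and Tdgf1) were all above the filter on low signal. Their summed signals were 80538 to 87946 in KO and 75010 to 76130 in cKO lines. Of the 8, 5 were higher and 3 lower in KO and 0 were called, Esrrb differing most (0.94, adjusted p = 0.115). The 6 endoderm markers, 1 of them above the filter, summed to 585 and 354 in KO and to 1073 and 707 in cKO lines. Dab2, the 1 above the filter, made the largest part, with 222 and 169 in KO lines, against 618 and 399 in cKO lines. The other endoderm markers read at most 125 on any array. KO and cKO values overlapped for Gata4, Gata6 and Foxa2, and KO lay below cKO for Sox17 and Sox7. The 6 trophoblast markers summed to 3016 and 1947 in KO and to 2539 and 1477 in cKO lines. Tfap2c alone made most of that, with 2186 and 1412 in KO lines, against 1346 and 766 in cKO lines. Of the 4 trophoblast markers tested, 2 were higher and 2 lower in KO. Krt7, the next brightest, ran the other way, with 417 and 250 against 705 and 356. The 13 feeder fibroblast markers summed to 7921 and 8784 in KO lines 1 and 2, against 22761 and 15706 in cKO lines 1 and 2, and 10 of the 13 were above the filter, while Fap and Lum stayed under 45 on every array. Most of these sums came from Tagln and Acta2. Tagln read 2230 and 2469 in KO lines, against 8938 and 7092 in cKO lines. Acta2 read 4163 and 4809, against 10141 and 6210. All 10 tested fibroblast markers were lower in KO, beside 5303 of all 10916 genes. Of the 10, 3 (Tagln, Col5a1 and Thy1) were called, where 2.21% of all genes were. Postn differed little, at 84.9 and 66.5 against 99.1 and 71.9. Col3a1, Dcn and Postn, with KO means of 67.4, 64.5 and 75.7, were above the filter only through their cKO values. The count of lower markers includes them, so for them it is not given as a test. The summed fibroblast signal moved with the genotype, and its part in the values below was not tested. In such bulk RNA, fewer cells of a type and less RNA per cell cannot be told apart.

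None of the 9 PRC1 genes passed the test between KO and cKO lines. Across 10916 genes tested in limma, 2.21% were called at an adjusted p under 0.05, and the count among the PRC1 genes was 0 of 9, also at an unadjusted p under 0.05, which 13.8% of all genes reached. The log2 fold changes ran from -0.32 for Cbx2 to 0.32 for Pcgf1, 4 positive and 5 negative, with a median of -0.02 beside 0.01 for all genes. The median absolute log2 fold change was 0.09 for the PRC1 genes and 0.17 for all genes. For all 9 genes the 95% interval of the fold change lay inside 2-fold in both directions, the outer bounds being a KO level of 0.605 and 1.77 times the cKO level, and 79.6% of all genes had such an interval. That criterion was chosen after the data were seen. The intervals are for 1 gene each and rest on 2 lines a group, with a variance moderated across all genes.

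**Figure D1:**
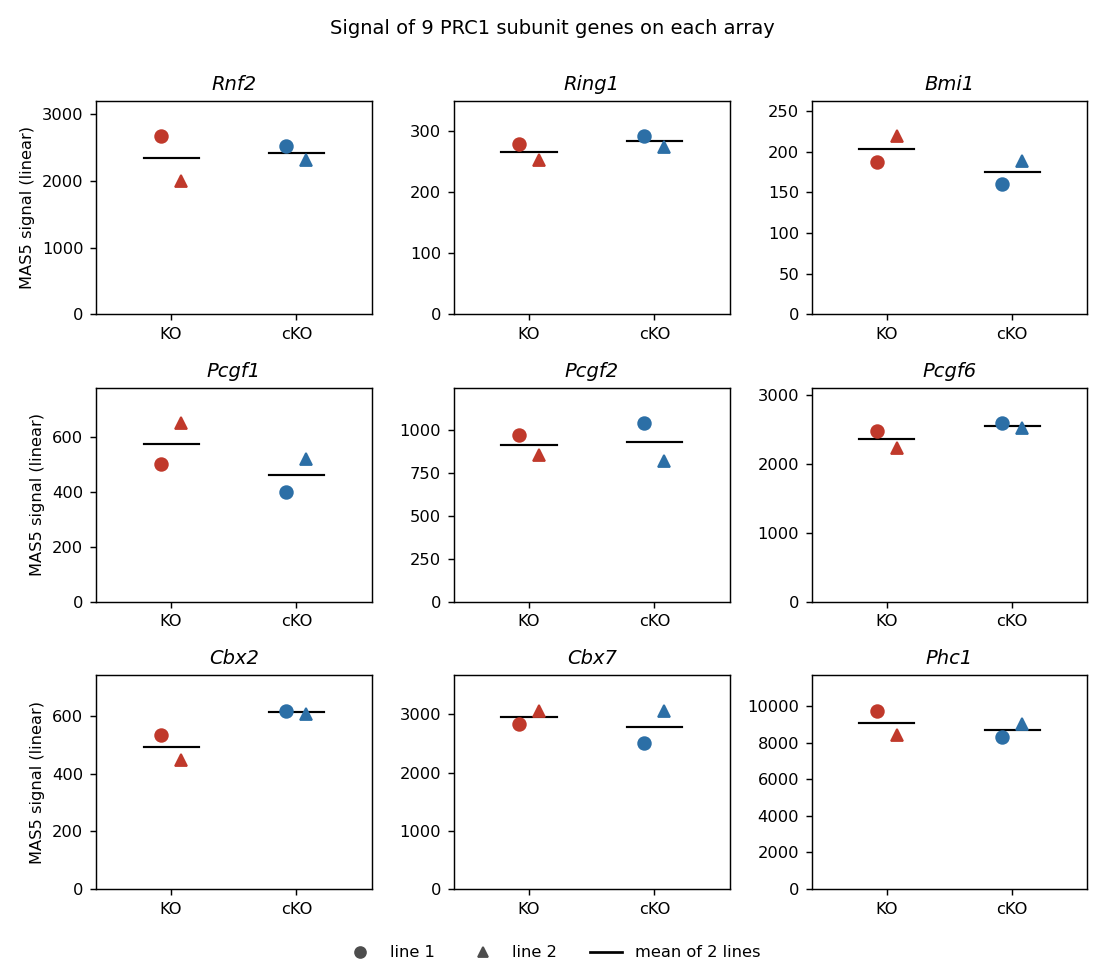
Linear MAS5 signal (vertical axes, starting at 0, a separate scale for each gene) of the brightest probe set of 9 PRC1 genes in KO and cKO lines; circles are line 1, triangles line 2 and bars the mean of 2 lines. KO and cKO values overlap for 7 genes, and both KO values lie below both cKO values for Cbx2 and Pcgf6.

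Both catalytic subunits had values close to 0 in the comparison. Rnf2, the E3 ligase that carries most PRC1 activity in embryonic stem cells, read 2675 and 2008 in KO lines 1 and 2, against 2525 and 2315 in cKO lines 1 and 2. The KO lines held both the highest and the lowest value, so the groups overlapped. The log2 fold change was -0.06 (SE 0.17, adjusted p = 0.93), with an interval of 0.724 to 1.27 times the cKO level. Its sign turned when KO line 2 (0.15) or cKO line 1 (0.0016) was left out, and when its probe sets were averaged (0.16). That average includes 1448043_x_at and 1448041_at, both below the filter, while every Rnf2 probe set above it was negative. A second bright Rnf2 probe set (1451519_at) read 2211 and 1786 in KO lines, against 2633 and 1904 in cKO lines. There line 1 read above line 2 in both groups, and the log2 fold change was -0.17 (adjusted p = 0.841 over probe sets). A dimmer one (1448042_s_at) gave -0.03 with a wide interval of 0.568 to 1.69 times the cKO level.

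Ring1, the paralogue of Rnf2, read 278 and 252 in KO lines 1 and 2, against 291 and 274 in cKO lines 1 and 2. The groups overlapped by a narrow margin, since KO line 1 lay just above cKO line 2. On the log2 scale KO differed from cKO by -0.09 (SE 0.19, adjusted p = 0.9), with an interval of 0.686 to 1.28 times the cKO level.

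Promoter sequence was looked at because it is a feature that the choice of genes did not use, and because the variant subunit KDM2B binds unmethylated CG dinucleotides. The 250 bases before the RefSeq start (GRCm38.p6) were at hand for 7 of the 9 genes. They held between 5 (Pcgf2) and 30 (Ring1) CG dinucleotides, with a median of 20, beside a median of 6 over 32851 promoters. The counts for the others were 20 for Rnf2, 21 for Bmi1, 23 for Cbx7, 14 for Pcgf6 and 8 for Phc1. For Pcgf2, Pcgf6 and Cbx7 the start used lies inside the gene's annotated span. The catalytic pair and Phc1, whose fold change had the narrowest interval, are shown 5′ to 3′ on the gene's strand, with every CG in capitals, to show the range of CG density among genes that gave no call. They lie on the minus strand at chr17:34024681-34024930 (Ring1), chr1:151500992-151501241 (Rnf2) and chr6:122340228-122340477 (Phc1). Of all promoters, 5.94% held at least as many CG as Ring1, 17.9% as Rnf2 and 43.0% as Phc1.
Ring1: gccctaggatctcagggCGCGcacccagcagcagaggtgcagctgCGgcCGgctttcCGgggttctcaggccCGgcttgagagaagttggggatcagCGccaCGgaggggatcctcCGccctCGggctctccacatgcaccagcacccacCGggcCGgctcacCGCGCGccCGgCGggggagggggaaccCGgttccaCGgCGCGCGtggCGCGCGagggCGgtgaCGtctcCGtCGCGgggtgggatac
Rnf2: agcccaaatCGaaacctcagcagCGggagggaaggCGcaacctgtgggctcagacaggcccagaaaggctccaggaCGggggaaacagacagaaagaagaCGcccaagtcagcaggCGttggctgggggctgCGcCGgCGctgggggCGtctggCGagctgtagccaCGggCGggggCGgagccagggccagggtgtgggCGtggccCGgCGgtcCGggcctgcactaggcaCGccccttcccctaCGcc
Phc1: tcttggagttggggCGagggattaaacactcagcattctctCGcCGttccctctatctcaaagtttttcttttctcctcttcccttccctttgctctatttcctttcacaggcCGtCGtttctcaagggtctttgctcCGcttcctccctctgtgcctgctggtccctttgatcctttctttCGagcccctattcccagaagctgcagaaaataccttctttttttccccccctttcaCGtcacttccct

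Among the PCGF proteins of canonical complexes, Pcgf2 (MEL18) read 972 and 853 in KO lines 1 and 2, against 1040 and 822 in cKO lines 1 and 2. The KO values lay between the cKO values. KO differed from cKO by -0.02 on the log2 scale (SE 0.18, adjusted p = 0.98), a value that turned positive when KO line 2 (0.07) or cKO line 1 (0.15) was left out and when both probe sets were averaged (0.01). A second Pcgf2 probe set (1456330_at) read 207 and 149 in KO lines, against 213 and 136 in cKO lines, again with the KO values inside the cKO range.

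Bmi1 (PCGF4), the paralogue of Pcgf2, read 187 and 219 in KO lines 1 and 2, against 160 and 188 in cKO lines 1 and 2. KO line 1 lay just below cKO line 2, so the groups overlapped. Averaged over lines, KO exceeded cKO by 0.21 on the log2 scale (SE 0.23, adjusted p = 0.781), with an interval of 0.795 to 1.69 times the cKO level. KO line 1 exceeded cKO line 1 by 0.22, and KO line 2 exceeded cKO line 2 by 0.21, on the log2 scale; no label pairs these lines. Its second probe set (1448733_at) read 46.3 and 45.1 in KO lines, against 31.7 and 33.5 in cKO lines, which was below the filter and not tested.

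The PCGF genes of variant complexes included the gene with the highest fold change. Pcgf1 (NSPC1), which joins KDM2B and BCOR in the variant complex that binds CpG islands, read 501 and 648 in KO lines 1 and 2, against 399 and 518 in cKO lines 1 and 2. Line 2 read above line 1 in both groups, and KO line 1 lay below cKO line 2. Its log2 fold change was 0.32 (SE 0.21, adjusted p = 0.607), with an interval of 0.885 to 1.77 times the cKO level. Each KO line exceeded the cKO line of its number by 0.32. Leaving out KO line 1 gave 0.51 (adjusted p = 0.432, upper bound 2.06-fold), and leaving out cKO line 2 also gave 0.51 (adjusted p = 0.618, upper bound 2.13-fold). The value was 0.14 without KO line 2 and also 0.14 without cKO line 1.

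Pcgf6 (MBLR), part of the variant complex with MGA, MAX and E2F6 that silences germ cell genes, read 2475 and 2228 in KO lines 1 and 2, against 2583 and 2517 in cKO lines 1 and 2. Both KO values lay below both cKO values by a small margin. KO differed from cKO by -0.12 on the log2 scale (SE 0.13, adjusted p = 0.794), with an interval of 0.74 to 1.15 times the cKO level. Another Pcgf6 probe set (1432108_at) ran the other way, with 349 and 389 in KO lines, against 311 and 296 in cKO lines. Its log2 fold change was 0.28 (adjusted p = 0.712 over probe sets), and neither probe set passed the test. The remaining one (1454120_a_at) read 440 and 312 in KO lines, against 456 and 329 in cKO lines, and line 1 was the higher in both groups. Averaging the 3 probe sets gave 0.03 for Pcgf6.

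**Figure D2:**
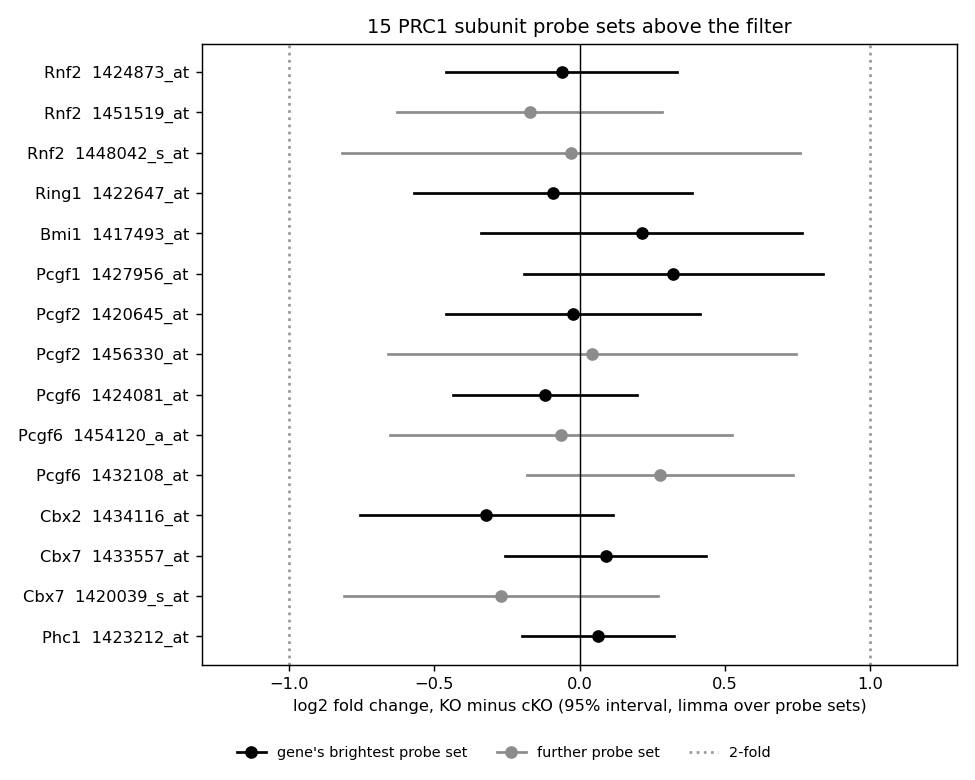
Log2 fold change of KO over cKO (horizontal axis) with its 95% interval for the 15 PRC1 probe sets above the filter; black marks a gene's brightest probe set, grey a further one and dotted lines 2-fold. All 15 intervals cross 0 and stay inside the dotted lines.

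The chromobox genes included the lowest fold change. Cbx2 (M33), a chromobox protein that can compact chromatin, read 534 and 449 in KO lines 1 and 2, against 618 and 607 in cKO lines 1 and 2. Both KO values lay below both cKO values, with the cKO lines close together. The KO mean differed from the cKO mean by -0.32 on the log2 scale (SE 0.17, adjusted p = 0.503), with an interval of 0.605 to 1.06 times the cKO level. The other Cbx2 probe set (1422059_at) read 22.9 and 3.22 in KO lines, against 42.8 and 19.4 in cKO lines, near background. Averaging it in gave -0.75 (adjusted p = 0.542), with a lower bound of 0.318 times the cKO level.

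Cbx7, the main chromobox protein of canonical PRC1 in embryonic stem cells, read 2843 and 3051 in KO lines 1 and 2, against 2502 and 3063 in cKO lines 1 and 2. The KO values lay inside the cKO range. Averaged over lines, KO exceeded cKO by 0.09 on the log2 scale (SE 0.15, adjusted p = 0.871), with an interval of 0.835 to 1.35 times the cKO level. A dimmer Cbx7 probe set (1420039_s_at) read 219 and 196 in KO lines, against 284 and 221 in cKO lines, with both KO values the lower. Its log2 fold change of -0.27 (adjusted p = 0.771 over probe sets) had the opposite sign. The sign of the Cbx7 value turned when cKO line 1 was left out (-0.06) and when its probe sets were averaged (-0.02).

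Phc1 (RAE28), the polyhomeotic protein that lets canonical complexes cluster, read 9750.0 and 8410 in KO lines 1 and 2, against 8316 and 9030 in cKO lines 1 and 2. The groups overlapped, and the lines took opposite orders in KO and cKO. The log2 fold change was 0.06 (SE 0.11, adjusted p = 0.879), with an interval of 0.872 to 1.25 times the cKO level, the narrowest of the 9. Without KO line 1 it was -0.04.

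The probe sets of 1 gene did not always share a sign. Above the filter lay 15 of the 20 probe sets, and the other 5 stayed at or under 55.5 on every array. None of the 15 passed over the 20975 probe sets tested, of which 1.22% were called, and the smallest adjusted p was 0.623. The KO and cKO values did not overlap for 4 of the 15, 1 higher and 3 lower in KO, where 40.1% of all probe sets tested did not overlap. Of 4 genes with more than 1 probe set above the filter, 3 (Pcgf2, Pcgf6 and Cbx7) had fold changes of both signs. Among the brightest probe sets, 2 of 9 genes had KO values wholly outside the cKO range, beside 42.6% of all genes.

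Line numbers, which no label pairs between KO and cKO, were also compared, for these genes and for all genes. Averaged over KO and cKO, the difference of line 1 from line 2 was larger in size than that of KO from cKO for 6 of the 9 genes, beside 51.1% of all genes. Line 1 read above line 2 in both groups for Rnf2, Ring1, Pcgf2, Pcgf6 and Cbx2, and below it in both for Bmi1, Pcgf1 and Cbx7. The order of the lines was thus the same in KO and cKO for 8 of 9 genes, as it was for 71% of all genes. The median absolute line difference was 0.20 on the log2 scale for the PRC1 genes and 0.18 for all genes.

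**Figure D3:**
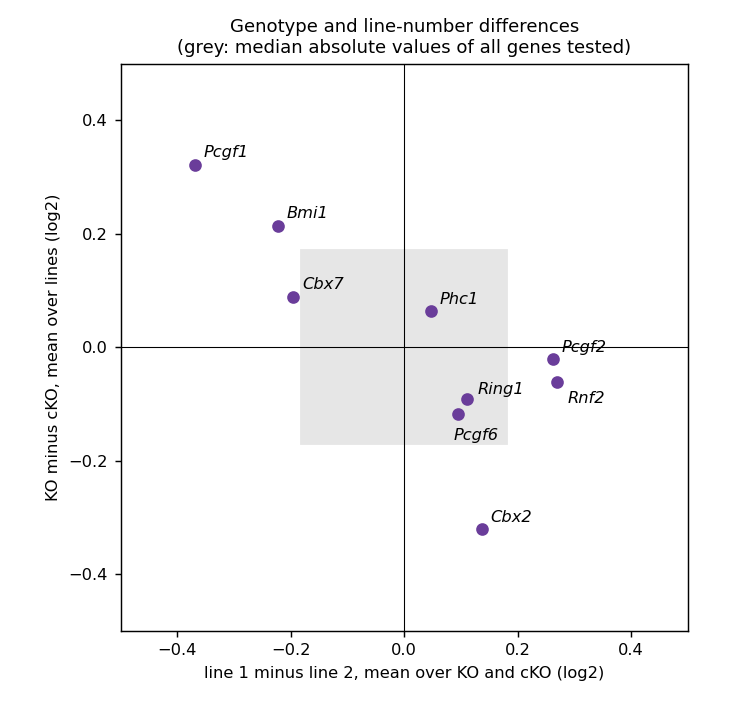
Log2 difference of KO from cKO (vertical axis) against the log2 difference of line 1 from line 2 (horizontal axis) for the 9 PRC1 genes; the grey box spans the median absolute difference of all genes tested on each axis. Pcgf1 lies farthest up and left, at 0.32 and -0.37, and Cbx2 farthest down at -0.32.

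Other subunits and partners of PRC1 gave no call either. Of 31 listed genes 29 had a probe set, 25 were tested and 0 passed, 11 above and 14 below 0 on the log2 scale, and the median was -0.03 beside 0.01 for all genes. At an unadjusted p under 0.05 there were 5 of 25, where 13.8% of all genes lay. The groups did not overlap for 14 of the 25, where 42.6% of all genes did not. Cbx6, Pcgf3 and Pcgf5, further chromobox and PCGF genes, had values of 0.19, -0.05 and -0.22. Kdm2b had -0.29 (adjusted p = 0.578 in limma), and its groups overlapped. A further bright Kdm2b probe set (1452198_at) read 1615 and 1247 in KO lines, against 2328 and 1920 in cKO lines. Its log2 fold change was -0.57 (adjusted p = 0.269 in limma over probe sets), with an interval of 0.500 to 0.903 times the cKO level.

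Yaf2, the homologue of Rybp in variant complexes, had the smallest p. It read 593 and 582 in KO lines 1 and 2, against 1019 and 841 in cKO lines 1 and 2. Both KO values lay well below both cKO values, and the log2 fold change was -0.65 (SE 0.17, adjusted p = 0.125), with an interval of 0.483 to 0.839 times the cKO level. With 1 array left out the log2 fold change of Yaf2 ran from -0.79 (without cKO line 2) to -0.51 (without cKO line 1). A second Yaf2 probe set (1429839_a_at) read 466 and 477 in KO lines, against 936 and 614 in cKO lines.

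Scmh1, a Sex comb on midleg homologue, read 708 and 547 in KO lines 1 and 2, against 514 and 261 in cKO lines 1 and 2. Its log2 fold change of 0.76 (SE 0.32, adjusted p = 0.355) was the highest of the list, and it passed without cKO line 1 (1.24, adjusted p = 0.027) but was 0.27 (adjusted p = 0.931) without cKO line 2. The other genes of small p were E2f6 (-0.43), a partner of PCGF6, Auts2 (-0.43), a partner of the PCGF3 and PCGF5 complexes, Csnk2a2 (-0.33), a casein kinase subunit, and Usp7 (0.25), a deubiquitinase, with adjusted p between 0.314 and 0.414. With 1 array left out the log2 fold change ran from -0.57 to -0.30 for E2f6, from -0.56 to -0.31 for Auts2, from -0.44 to -0.21 for Csnk2a2 and from 0.14 to 0.36 for Usp7. Averaging probe sets gave -0.84 for E2f6, whose other probe set (1437914_at) was below the filter, and -0.09 for Csnk2a2. The probe sets of Csnk2a2 and of Auts2 did not share a sign, while all 7 Usp7 probe sets were positive.

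The enzymes and readers that oppose or follow H2A ubiquitination gave no call. All 11 listed genes were tested and 0 passed, beside 2.21% of all genes. At an unadjusted p under 0.05 there were also 0 of 11, where 13.8% of all genes lay. The median log2 fold change was -0.04. Values ran from -0.23 for Usp22 to 0.28 for Mysm1, both deubiquitinases. Mysm1 rested on KO line 1, with 0.03 when that line was left out and 0.52 without KO line 2, and Usp22 was -0.11 without KO line 2. Bap1, the catalytic subunit of the main H2A deubiquitinase, had 0.02. A further Asxl2 probe set (1460597_at) had 0.55 (adjusted p = 0.422 in limma over probe sets), against 0.12 for the one used. PRC2, which writes the mark that canonical PRC1 reads, also gave 0 calls of 12 genes, and 2 at an unadjusted p under 0.05, where 13.8% of all genes lay. There 11 of 12 values were positive, with a median of 0.22, beside 5613 of 10916 positive and a median of 0.01 for all genes. That count rests on 1 probe set a gene, and further ones did not all share its sign. A bright further probe set of Jarid2 (1450710_at) had -0.35, against 0.10 for the one used. A dim one of Ezh1 (1418290_a_at) had -0.58, against 0.35. The smallest p were those of Aebp2 (-0.39, adjusted p = 0.317) and Mtf2 (0.25, adjusted p = 0.354), both accessory subunits, and with 1 array left out they ran from -0.53 to -0.26 and from 0.21 to 0.28.

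**Figure D4:**
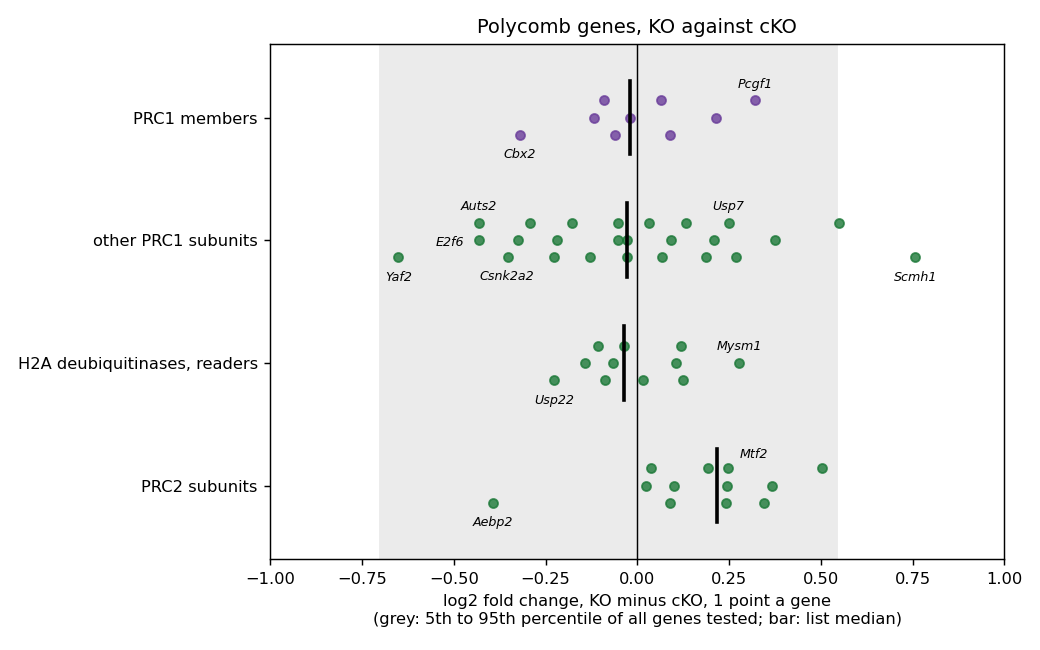
Log2 fold change of KO over cKO (horizontal axis) for each tested gene of 4 lists (rows); bars mark list medians and the grey band the 5th to 95th percentile of all genes tested, -0.70 to 0.54. The PRC1 members lie between -0.32 and 0.32, and Scmh1 at 0.76 and Max at 0.55 lie outside the band. Max (adjusted p = 0.517 in limma) reads 726 and 707 in KO lines 1 and 2, against 347 and 685 in cKO lines 1 and 2. Its value thus rests mainly on cKO line 1.

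Genes that PRC1 is known to silence gave no call. Of 16 germ cell genes listed as targets of PCGF6 complexes, 7 were tested and 0 passed. Their log2 fold changes were positive for 4 and negative for 3, with a median of 0.43, beside 0.01 for all genes. At an unadjusted p under 0.05 there were 3 of 7, where 13.8% of all genes lay. Hormad1, the positive gene among these 3, had 0.74 (adjusted p = 0.357 in limma). Mael, a piRNA pathway gene, read 96.8 and 69.8 in KO lines 1 and 2, against 176 and 243 in cKO lines 1 and 2. KO differed from cKO by -1.28 on the log2 scale (SE 0.31, adjusted p = 0.0994), and it passed when KO line 1 was left out (-1.50, adjusted p = 0.0221) and with median centring (-1.33, adjusted p = 0.0208). Dropping cKO line 2 gave -1.05, with an adjusted p of 0.452. Tdrkh, another piRNA pathway gene, read 66.2 and 86.6 in KO lines 1 and 2, against 163 and 124 in cKO lines 1 and 2. The mean of its KO lines, 76.4, was below the filter level of 77.7. Tdrkh was thus kept only through its cKO values, and its fold change is not given as a test. The counts above include it, among the 3 negative values and among the 3 with an unadjusted p under 0.05.

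Of 14 classic PRC1 targets only 3 lay above the filter, so most could not be tested. Of the 3, 0 passed and 1 had an unadjusted p under 0.05, where 13.8% of all genes lay. Cdkn2b, the cell cycle inhibitor p15, read 122 and 104 in KO lines 1 and 2, against 456 and 225 in cKO lines 1 and 2. Its log2 fold change was -1.47 (SE 0.35, adjusted p = 0.0957), and both KO values lay below both cKO values. It passed when KO line 1 (-1.58, adjusted p = 0.0159) or cKO line 2 (-1.97, adjusted p = 0.00869) was left out, and with median centring (-1.52, adjusted p = 0.00493). Without cKO line 1 it was -0.97 (adjusted p = 0.348). The summed fibroblast markers and the summed endoderm markers, of which Dab2 was the largest part, were highest in cKO line 1, as Cdkn2b was. Their part in this value was not tested. Eomes had -0.63 (adjusted p = 0.606), a value that rested on KO line 2: it was -0.06 without that line and -1.20 without KO line 1.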

How the data were processed

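Total RNA of 4 mouse embryonic stem cell lines was measured on 1 Affymetrix array each. The deposited values are intensity values, linear MAS5 signals per probe set per the submitters' processing notes, with settings not given in the sources used here. Each array had a 2% trimmed mean of 500.003. Gene names came from the platform annotation, updated through Entrez identifiers to RefSeq symbols (GRCm38.p6) for 34754 of 34958 probe sets naming 1 gene.

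Signals were used as log2(signal + 4.79), the 10th percentile of all values, a scale that understates changes of dim genes. The probe set of highest mean log2 signal stood for each of 18194 genes, and the lower 40% of genes (below a signal of 77.7) were left out, leaving 10916. The comparison of KO with cKO used limma 3.58.1 under R 4.3.3 (eBayes with a variance trend) and Benjamini-Hochberg adjustment, called under 0.05. Every probe set was also tested on its own. Plots used matplotlib 3.10.9. Simulated data with known changes were used to test these steps. Alternatives were other pseudocounts, filters, normalizations, probe set means, no trend, the line number as a block and each array left out.

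The members and gene lists were chosen with earlier results of these data known. Genes named are all members, Kdm6a, and the genes of smallest p in each list (6 for other PRC1 subunits, 2 for others). Cbx6, Pcgf3, Pcgf5, Kdm2b, Max, Bap1, Hormad1, Asxl2, Jarid2 and Ezh1 were added after their values were seen.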

Additional observations from a re-analysis of the deposited data

How the results depend on the processing

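The count of PRC1 genes called was 0 under all 13 alternatives. Of 115 values of the 9 genes under these alternatives, 105 kept their sign, 10 changed it and 0 passed the threshold. Averaging all probe sets of each gene gave log2 fold changes of 0.157 for Rnf2, 0.0103 for Pcgf2, 0.0315 for Pcgf6 and -0.0231 for Cbx7. With 1 array left out it ran from -0.267 to 0.145 for Rnf2, from -0.19 to 0.148 for Pcgf2, from -0.0562 to 0.235 for Cbx7 and from -0.0431 to 0.17 for Phc1, and without a change of sign from 0.137 to 0.507 for Pcgf1, 0.101 to 0.327 for Bmi1, -0.445 to -0.197 for Cbx2, -0.194 to -0.0431 for Pcgf6 and -0.16 to -0.0242 for Ring1. The number of PRC1 genes with a 95% interval inside 2-fold was 7 to 9. It was 7 of 7 tested with the lower 60% of genes left out, and the exceptions were Cbx2 with averaged probe sets, Pcgf1 without KO line 1 or cKO line 2, and Bmi1 without cKO line 2.

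Over all genes 241 were called (70 higher and 171 lower in KO), 62 higher and 266 lower with median centring, 147 without a filter, 157 with the lower 60% left out, 129 with averaged probe sets, 28 without the variance trend and 228 to 434 with 1 array left out (434 without KO line 1). Over probe sets 255 were called, 125 without a filter, 1 without the trend and 251 to 395 with 1 array left out (395 without cKO line 1). With the line number as a block 1048 genes and 1681 probe sets were called. The block left the PRC1 genes uncalled (Pcgf1 adjusted p = 0.154, Cbx2 adjusted p = 0.17) and called Kdm6a, Yaf2, Scmh1, Aebp2, Mael and Cdkn2b. The lines share only a number: the difference of line 1 from line 2 correlated at 0.52 between KO and cKO over 10916 genes, which are not independent replicates. The cause of these shifts was not tested. With 2 lines a group and dim probe sets near background, differences smaller than the intervals were not detectable.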
